A study of Mus musculus with 12 samples.

Results

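The genes described here encode 10 proteins with which mouse cells read RNA and DNA in the cytosol: *Rigi*, *Ifih1*, *Dhx58*, *Mavs*, *Cgas*, *Sting1*, *Zbp1*, *Aim2*, *Eif2ak2* and *Tbk1*. They were chosen by name from the known pathways, with earlier results of these data known. All 10 were measured among 18193 genes, and 21 probe sets read them. They were followed in peritoneal macrophages (PMs) on 12 Affymetrix mouse arrays, 2 in each of 6 groups. Before exosomes were added, PMs of adult C57BL/6 mice received the antagomir Antagomir21 (an antisense oligonucleotide that binds miR-21), a scramble control oligonucleotide, or, as the labels put it, Lipofectamin, the transfection reagent, read here as given without oligonucleotide. Each transfection was combined with exosomes, the small vesicles released by cells, from sensory neurons that overexpressed miR-21 or carried a GFP reporter. All groups thus share the transfection reagent and neuronal exosomes, and cells without either are not analysed here. The PMs were enriched by adherence of peritoneal lavage cells, with no sort. The study's methods describe biological replicates collected independently, more per condition than the 2 arrays of each group here. The labels do not say that these arrays came from separate cultures or animals, so p-values measure only the spread between these arrays.

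In the cytosol, RIG-I (encoded by *Rigi*) and MDA5 (*Ifih1*) bind viral or misplaced RNA and pass the signal to the mitochondrial adaptor MAVS, while cGAS (*Cgas*) binds double-stranded DNA and makes the messenger cGAMP, which activates STING (*Sting1*). Both routes meet at the kinase TBK1, which activates IRF3 and the type I interferon genes. Interferon in turn raises many of the sensors themselves, and macrophages are among the cells known for strong responses of this kind. An oligonucleotide delivered with a lipid reagent enters the compartment that these proteins survey.

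The microRNA that the exosomes were made to carry is shown because it defines the exosome groups. Its mature sequence in RefSeq (GRCm38.p6, chr11:86584120-86584141, minus strand) is given with its seed, bases 2 to 8, in capitals.
mmu-miR-21a-5p: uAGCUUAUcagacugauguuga
Promoter windows in RefSeq (GRCm38.p6, from 250 bases before to 50 after the annotated start) matched 7 of the 10 genes. They were searched on both strands for the core letters of the interferon-stimulated response element, GAAANNGAAA or TTTCNNTTTC, which is the element that interferon-activated factors bind. *Rigi*, *Ifih1* and *Eif2ak2* held the letters, whereas the windows of *Mavs*, *Cgas*, *Aim2* and *Tbk1* did not, and 3.44% of 32851 promoter windows held them. The matches begin 3, 33 and 19 bases into the annotated transcripts of *Rigi*, *Ifih1* and *Eif2ak2*, and are shown in capitals within their surroundings because these 3 windows are the ones with a match. A match is a description of letters and does not show that a factor binds.
Rigi (chr4:40239804-40239833, minus strand): cctgaggcagTTTCGATTTCctatggccag
Ifih1 (chr2:62646206-62646233, minus strand): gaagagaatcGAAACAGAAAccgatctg
Eif2ak2 (chr17:78882535-78882564, minus strand): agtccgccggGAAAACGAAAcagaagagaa

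The 2 arrays of a group did not resemble each other more than they resembled other arrays. Over genes above the median signal, the mean correlation was 0.633 for the 6 pairs of arrays within groups and 0.657 for the 60 pairs between groups. The 10 sensors shared this spread. The median gap between the 2 arrays of a group, over the sensors, was 1.66 on the log2 scale in antagomir with miR-21 exosomes and 1.95 in scramble with miR-21 exosomes, against 0.32 to 1.27 in the other 4 groups. The scramble array 1 with miR-21 exosomes and its replicate 2 held the highest or lowest value of 7 and 4 sensors. The exosome difference of *Dhx58* is therefore also given without these 2 arrays, whereas comparisons in which they are 1 of the 2 arms cannot be made without them. Macrophage markers were read on every array, with a mean log2 signal over 11 of them of 10.52 to 12.08, and the number of arrays limits the precision of all values. Levels are log2 signals as deposited, so a difference of 1 stands for a 2-fold difference in signal.

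The RNA sensors did not share a pattern. *Ifih1* had the smallest spread of them (SD 0.61 over 12 arrays). With miR-21 exosomes its lowest, median and highest log2 signals were 9.33, 10.10 and 11.16, and with GFP exosomes they were 9.13, 10.32 and 10.97. *Rigi* was read at 9.46 and 9.27 in antagomir with miR-21 exosomes and at 8.45 and 7.95 in antagomir with GFP exosomes. In scramble-treated PMs *Rigi* was at 10.08 and 5.07 with miR-21 exosomes and at 9.36 and 8.32 with GFP exosomes. After lipofectamine it was at 9.92 and 9.66 with miR-21 exosomes and at 9.16 and 7.09 with GFP exosomes. By its brightest probe set, the *Rigi* groups with miR-21 exosomes thus lay above those with GFP exosomes after antagomir and after lipofectamine. A single scramble array, at 5.07, was the lowest of all 12. The other probe sets of *Rigi* did not share this direction throughout. After antagomir the second-brightest differed by −0.39 between miR-21 and GFP exosomes, and the dimmest by 1.835. After lipofectamine they differed by 1.69 and −2.27. How many of all genes were separated in this way, with 2 arrays against 2, was not counted. *Dhx58* encodes LGP2, a relative of RIG-I that lacks its signaling domains and tunes the responses of RIG-I and MDA5. It had log2 signals of 5.94 and 7.67 in antagomir with miR-21 exosomes, against 8.11 and 8.40 with GFP exosomes. In scramble-treated PMs *Dhx58* was at 4.08 and 4.90 with miR-21 exosomes, against 8.60 and 8.81 with GFP exosomes. After lipofectamine it was at 6.92 and 8.27 with miR-21 exosomes, against 7.61 and 8.27 with GFP exosomes. The scramble arrays with miR-21 exosomes held the 2 lowest values, and the GFP arrays lay within a narrow band from 7.61 to 8.81.

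Of the DNA sensors, *Cgas* was read at 9.42, 10.31 and 11.77 with miR-21 exosomes and at 8.38, 10.26 and 11.05 with GFP exosomes (lowest, median and highest of 6 arrays). *Aim2* encodes the DNA receptor of an inflammasome, the complex that activates caspase-1. In antagomir-treated PMs its log2 signals were 9.43 and 7.91 with miR-21 exosomes and 9.25 and 8.08 with GFP exosomes, and in scramble-treated PMs 10.01 and 6.76 with miR-21 exosomes and 5.59 and 8.94 with GFP exosomes. After lipofectamine *Aim2* was at 5.02 and 4.48 with miR-21 exosomes and at 7.93 and 8.18 with GFP exosomes. The pair of lipofectamine arrays with miR-21 exosomes was the lowest of the 12. Both values lay below the lower quartile of all probe sets on their arrays (5.62 and 6.95), and whether they stand above background is not known. *Zbp1* encodes a sensor of nucleic acid in the Z conformation that can start necroptosis, an inflammatory form of cell death. Its arrays were at 9.61 and 9.33 after lipofectamine with miR-21 exosomes, against 6.17 and 7.68 after lipofectamine with GFP exosomes, and at 6.04 to 9.24 in the groups given an oligonucleotide.

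The adaptors *Mavs* and *Sting1* varied mostly on the arrays with miR-21 exosomes. *Mavs* had a lowest, median and highest log2 signal of 4.24, 8.67 and 9.86 with miR-21 exosomes and of 6.96, 8.33 and 10.18 with GFP exosomes. *Sting1* was at 5.91, 8.62 and 10.64 with miR-21 exosomes and at 8.70, 9.22 and 9.91 with GFP exosomes. The lowest array of both adaptors was scramble array 1 with miR-21 exosomes. *Tbk1*, the kinase shared by both routes, was at 10.26, 11.66 and 12.32 with miR-21 exosomes and at 11.57, 11.72 and 11.99 with GFP exosomes. *Eif2ak2* encodes PKR, the kinase that stops translation when it binds double-stranded RNA. It was at 9.16, 10.61 and 11.30 with miR-21 exosomes and at 10.57, 10.77 and 11.25 with GFP exosomes. For 9 of the 10 genes the SD over the 6 arrays was larger among miR-21 arrays than among GFP arrays (median SD 1.47 and 0.73), and the same held for 65.4% of all genes (median SD 1.52 and 1.18). *Cgas* was the exception, with an SD of 0.93 with miR-21 exosomes and 0.95 with GFP exosomes.

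**Figure D1:**
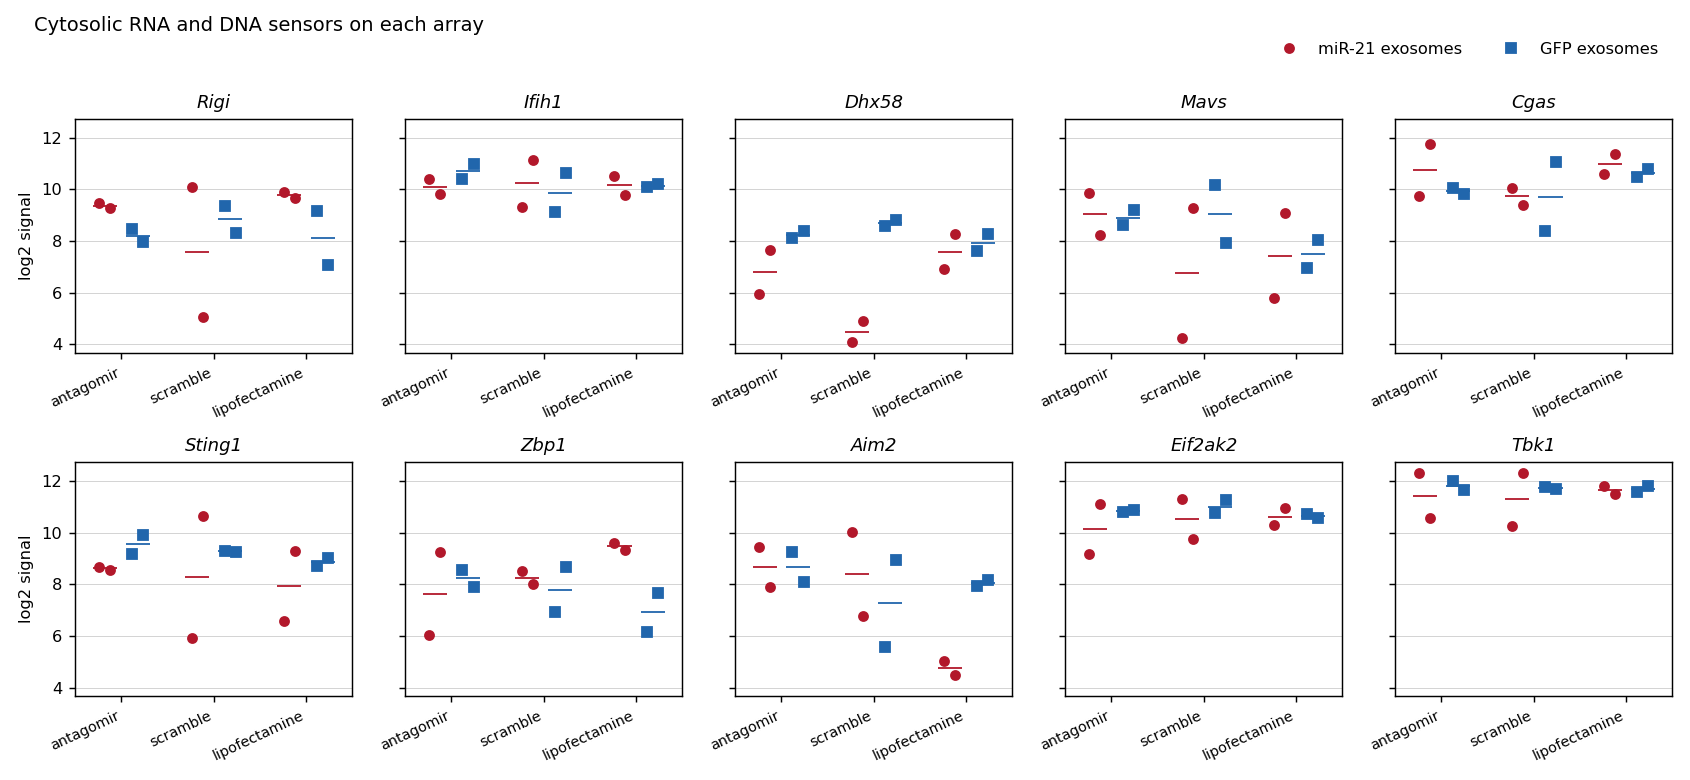
The log2 signal of each of the 10 sensor genes is plotted on every array, by transfection (antagomir, scramble, lipofectamine) and exosome type (miR-21 in red circles, GFP in blue squares), with a line at each mean of 2 arrays. *Dhx58* is lowest in scramble with miR-21 exosomes (4.08 and 4.90), *Aim2* is lowest after lipofectamine with miR-21 exosomes (5.02 and 4.48), and the GFP arrays of *Tbk1* lie between 11.57 and 11.99.

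The oligonucleotide comparison asks whether the sensors differ in PMs that were given an oligonucleotide, antagomir or scramble, from PMs given the reagent. None of the 10 did so beyond the spread between arrays. Over 8 oligonucleotide arrays and 4 lipofectamine arrays, 0 of 10 passed an unadjusted p under 0.05, the threshold named in the study's methods, where 4.05% of all genes passed it, and no gene passed after Benjamini-Hochberg adjustment (0% of 18193 genes). The median difference of the sensors was −0.06 on the log2 scale, against −0.03 for all genes, with 4 of them higher and 6 lower. *Aim2* differed most, with a lowest, median and highest log2 signal of 5.59, 8.51 and 10.01 on the oligonucleotide arrays and 4.48, 6.47 and 8.18 on the lipofectamine arrays. The ranges overlapped, and the difference was 1.84 (SE 0.83, limma adjusted p = 0.999, two-sided exact permutation test within exosome type p = 0.111). For the RNA sensors, *Rigi* differed by −0.46 (SE 0.89), *Ifih1* by 0.07 (SE 0.59) and *Dhx58* by −0.70 (SE 0.57). *Eif2ak2* (−0.01, 95% interval −1.31 to 1.30) and *Tbk1* (−0.11, −1.44 to 1.22) were close to 0, and their intervals still leave room for more than a 2-fold change. *Mavs* was 0.98 higher (SE 1.02), and *Cgas* 0.77 lower (SE 0.67).

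The partners of the sensors behaved likewise in the oligonucleotide comparison. Of 20 measured signaling partners, 10 were higher and 10 lower, and *Traf2*, an adaptor that joins MAVS complexes, was the one past the unadjusted threshold (2.19 higher, SE 0.85, adjusted p = 0.999). *Traf2* is dim, with a mean log2 signal of 5.78, below the lower quartile of gene means (6.84). Whether it stands above background is not known. None of 18 genes of DNA metabolism and DNA sensing, 14 effectors of double-stranded RNA, 4 partners of ZBP1 in necroptosis or 7 genes of the eIF2α kinases and their response passed the unadjusted threshold. Among interferons and their receptor pathway, 3 of 11 were higher and 8 lower, with a median of −1.14 against −0.03 for all genes, and 0 passed the threshold. *Ifna5* and *Ifna4*, which encode type I interferons, had differences of −1.84 (SE 0.97) and −1.69 (SE 1.01). Interferon alpha genes are near-identical copies whose probe sets may read one another. The means of *Ifna4* (5.80), *Ifna2* (5.04) and *Ifnb1* (5.56) also lay below the lower quartile of gene means, whereas that of *Ifna5* (7.26) did not. Of 17 interferon-stimulated genes 11 were higher and 6 lower (median 0.10), and 0 passed. Markers of other peritoneal cells were also unequal in this comparison. *Fcer1a*, the IgE receptor chain of mast cells, was 3.26 higher (SE 0.78) and *Ccr7*, of migrating dendritic cells, was 2.16 lower (SE 0.81), both with an adjusted p of 0.999. The mean of *Ccr7* (6.41) lay below the lower quartile of gene means, and that of *Fcer1a* (7.04) above it. The array means of 6 mast cell markers ran from 7.66 to 8.74 on the oligonucleotide arrays and from 7.02 to 7.73 on the lipofectamine arrays. The part of these cells in the result was not tested, and in bulk RNA fewer cells of a type and less RNA per cell cannot be told apart.

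The exosome comparison asks whether the sensors differ in PMs given miR-21 exosomes from those given GFP exosomes. By its brightest probe set *Dhx58* had a lower mean with miR-21 exosomes, but this did not pass adjustment and its probe sets did not share a direction. The other 9 genes did not pass the unadjusted threshold. Over 6 arrays each, the lowest, median and highest log2 signals of *Dhx58* were 4.08, 6.43 and 8.27 with miR-21 exosomes and 7.61, 8.33 and 8.81 with GFP exosomes. The mean difference was −2.0 (SE 0.54, 95% interval −3.20 to −0.80), which did not pass adjustment over all genes (limma adjusted p = 0.611, two-sided exact permutation test within transfection p = 0.037). It was 1 of 10 sensors past the unadjusted threshold, where 5.45% of all genes passed it and 0% passed after adjustment. Without both arrays of scramble with miR-21 exosomes, an alternative added after the data were seen, the *Dhx58* difference was −0.90 and no longer past the unadjusted threshold. The median difference of the 10 sensors was −0.34, against −0.02 for all genes, with 3 higher and 7 lower. That median was −0.14 with quantile normalization, 0.027 with the mean of probe sets and −0.050 without scramble replicate 1 with miR-21 exosomes. *Zbp1* (0.81, SE 0.68), *Rigi* (0.52, SE 0.83) and *Cgas* (0.39, SE 0.63) were on the higher side. *Sting1* (−0.95, SE 0.83), *Mavs* (−0.74, SE 0.97) and *Aim2* (−0.72, SE 0.78) were on the lower side. Exact permutation p-values of the other 9 genes ran from 0.306 for *Zbp1* to 0.824 for *Ifih1*.

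**Figure D2:**
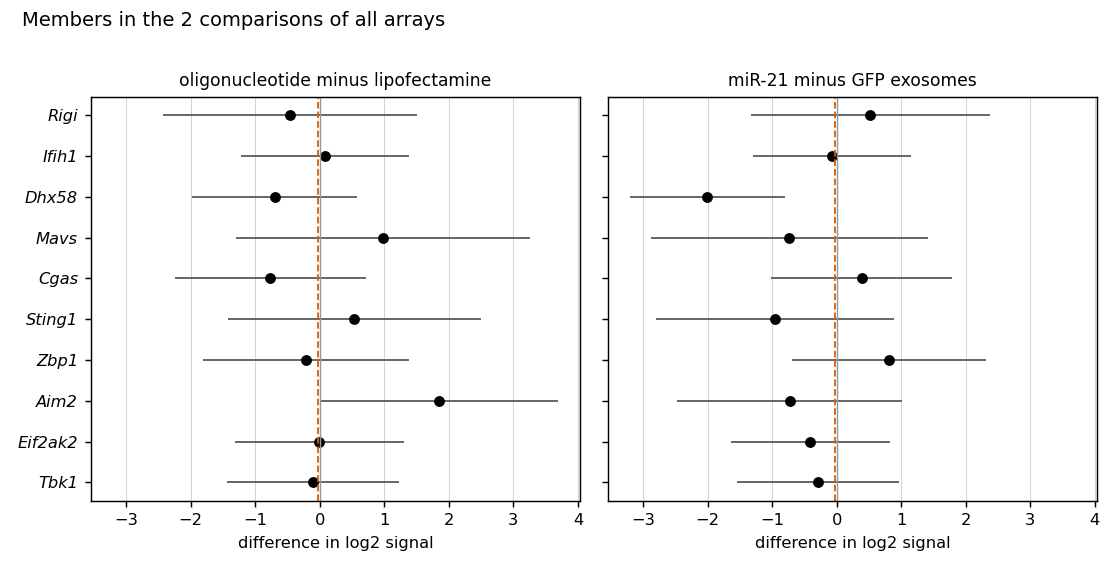
Differences in log2 signal of the 10 sensor genes, oligonucleotide minus lipofectamine on the left and miR-21 minus GFP exosomes on the right, are plotted as points with 95% intervals from limma, and the dashed line marks the median of all genes. The interval of *Dhx58* in the exosome comparison (−3.20 to −0.80) is the only one of the 20 that does not cross 0.

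The probe sets of *Dhx58* did not give the same direction, in tests of single probe sets that were added after the data were seen. The brightest one, 1451426_at, is the one described so far. Probe set 1420769_at differed by 0.15 between miR-21 and GFP exosomes (exact permutation test p = 0.907). Probe set 1420768_a_at was 2.73 higher, with log2 signals from 4.54 to 8.60 with miR-21 exosomes and from 2.0 to 5.51 with GFP exosomes, an exact permutation p of 0.0093, the smallest that 216 permutations can give. Over the 12 arrays the first and the third probe set correlated with r = −0.68. Probe set 1420768_a_at is dim, below the array's lower quartile of all probe sets (5.35 to 6.97) on all 6 GFP arrays and below it (5.28 to 7.04) on 3 of 6 arrays with miR-21 exosomes, and whether it stands above background is not known. The brightest probe set lay below that quartile on 2 arrays, scramble with miR-21 exosomes. The mean of all 3 probe sets differed by 0.29. Probe sets of *Eif2ak2* had r of 0.49 to 0.82 over 12 arrays and the pair of *Cgas* 0.54, while those of *Rigi*, *Mavs*, *Sting1*, *Zbp1* and *Tbk1* had r from −0.27 to 0.15. *Ifih1* and *Aim2* were read by 1 probe set each.

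**Figure D3:**
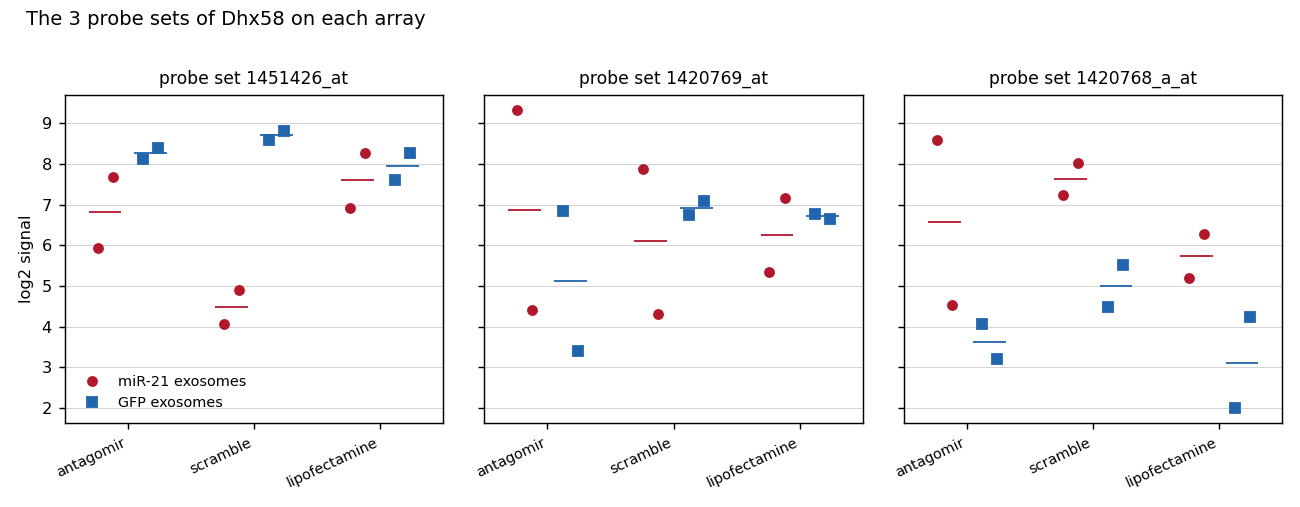
The log2 signals of the 3 probe sets of *Dhx58* are plotted on every array by transfection, with miR-21 exosomes in red circles left of GFP exosomes in blue squares and a line at each mean of 2 arrays. Probe set 1451426_at is lower with miR-21 exosomes (difference −2.0), 1420769_at differs by 0.15, and 1420768_a_at is higher (2.73).

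Genes downstream of the sensors lay on both sides of 0 in the exosome comparison. *Ifnb1*, which encodes interferon beta, had a mean log2 signal of 6.78 with miR-21 exosomes and 4.34 with GFP exosomes, a difference of 2.45 (SE 0.99, adjusted p = 0.867). It was the one of 11 interferon and receptor genes past the unadjusted threshold, and 8 of them were higher. Of 17 interferon-stimulated genes, 3 were higher and 14 lower with miR-21 exosomes, with a median of −0.26 against −0.02 for all genes. *Ifi47*, an interferon-inducible GTPase (−1.67, SE 0.61), and *Bst2*, which encodes the antiviral membrane protein tetherin (−1.45, SE 0.61), were past the unadjusted threshold on the lower side. *Mx2*, an antiviral GTPase (1.30, SE 0.57), was past it on the higher side, but its highest log2 signal on the 12 arrays was 6.76, and whether it stands above background is not known. *Ifnb1* lay below the array's lower quartile of all probe sets on 2 of 6 arrays with miR-21 exosomes and on 5 of 6 with GFP exosomes. *Prkra*, which encodes the PKR activator PACT, was 1.65 lower (SE 0.74) and was the 1 of 14 effectors of double-stranded RNA past it. None of these passed adjustment (adjusted p from 0.820 to 0.913). None of the 20 signaling partners, 18 genes of DNA metabolism and DNA sensing, 4 partners of ZBP1 or 7 genes of the eIF2α kinases passed the unadjusted threshold.

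Markers of other cells were unequal between the exosome types as well. Of 6 mesothelial markers 5 were higher with miR-21 exosomes (median 1.36), with array means of 6.73 to 8.13 with miR-21 exosomes and 5.52 to 7.91 with GFP exosomes. *Krt8*, a keratin of the mesothelial lining, was 2.0 higher (SE 0.82, adjusted p = 0.881). All 5 measured T and NK cell markers and 6 of 7 dendritic cell markers were higher (medians 0.44 and 0.62). Of 5 B cell markers, 1 was higher and 4 lower (median −0.25), and *Ms4a1* of this list had a mean log2 signal of 12.41. Sensory neuron markers were 3 higher and 4 lower, and mast cell markers 4 higher and 2 lower (medians −0.01 and 0.23). Macrophage markers had array means of 11.00 to 12.07 with miR-21 exosomes and 10.52 to 12.08 with GFP exosomes, and 4 of 11 were higher. Several markers of the other cells were dim. Means of the T and NK cell markers *Cd3d* (5.52), *Cd4*, *Cd8a* and *Ncr1* lay below the lower quartile of gene means (6.84). That of *Cd3e* lay above it. The mesothelial *Krt8* (6.68) and *Krt19* (5.86) and the dendritic *Flt3* (4.86) also lay below it, whereas *Krt18*, *Wt1*, *Zbtb46* and *Xcr1* lay above it. Whether the dim markers of these cells stand above background is not known. The part of these cells in the values of *Dhx58* was not tested.

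Within each transfection, the exosome comparison rests on 2 arrays against 2. After scramble, *Dhx58* was the only sensor past the unadjusted threshold (−4.21, SE 0.94, adjusted p = 0.652), as were 5.7% of all genes. In the same comparison 4 of 5 T and NK cell markers were higher, 3 of them past the unadjusted threshold (median 3.30), and their part in the result was not tested. After antagomir, the *Dhx58* difference was −1.45 (SE 0.94), and none of the 10 sensors passed, against 5.68% of all genes. After lipofectamine it was −0.34 (SE 0.94). There *Aim2* was the sensor past the unadjusted threshold, with a mean of 4.75 with miR-21 exosomes and 8.05 with GFP exosomes (−3.31, SE 1.36, adjusted p = 0.999), as were 3.84% of all genes. By its brightest probe set *Zbp1*, also after lipofectamine, was 2.55 higher with miR-21 exosomes (SE 1.18, 95% interval −0.07 to 5.16). Its arrays did not overlap, and how many of all genes were separated in this way was not counted. The other probe set of *Zbp1* differed by −0.72 (SE 1.425). No gene passed after adjustment in any of these comparisons (0%).

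**Figure D4:**
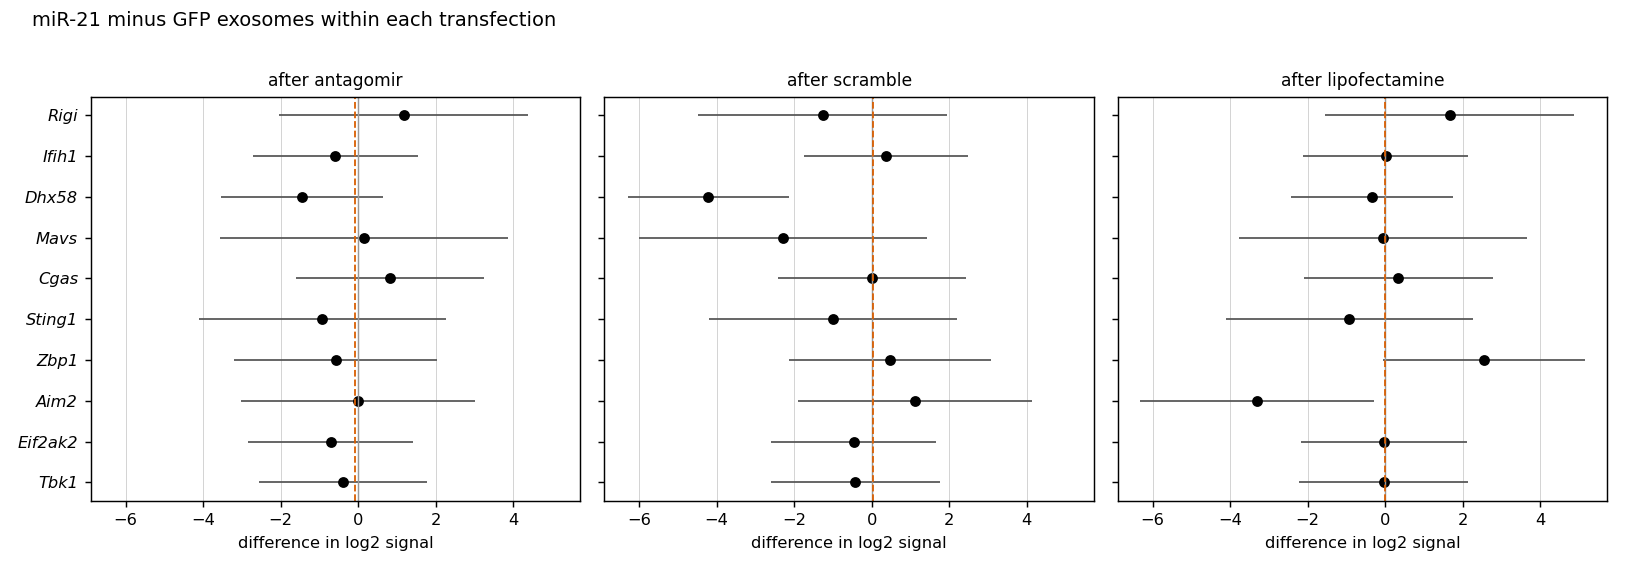
Differences in log2 signal between miR-21 and GFP exosomes of the 10 sensor genes are plotted for antagomir, scramble and lipofectamine as points with 95% intervals from limma, and the dashed line marks the median of all genes. The intervals that do not cross 0 are those of *Dhx58* after scramble (−4.21) and of *Aim2* after lipofectamine (−3.31).

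The exosome differences were also set against each other. For *Dhx58* the difference after scramble was 3.87 lower than after lipofectamine (SE 1.33), and for *Aim2* it was 4.43 higher (SE 1.92), both with an adjusted p of 1.0. The other probe sets of *Dhx58* gave −0.36 (1420769_at) and 0.016 (1420768_a_at) in place of −3.87. *Dhx58*, by its brightest probe set, and *Aim2* were the 2 sensors of 10 past the unadjusted threshold, where 3.8% of all genes passed it. Between antagomir and scramble the exosome difference of *Dhx58* differed by 2.76 (SE 1.33), and none of the sensors passed, against 5.36% of all genes.

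Taken apart by exosome type, the oligonucleotide comparison gave unlike values for *Aim2*. With miR-21 exosomes, *Aim2* had a mean of 8.53 on the 4 oligonucleotide arrays and 4.75 on the 2 lipofectamine arrays. On those 2 arrays *Aim2* (5.02 and 4.48) lay below the lower quartile of all probe sets (5.62 and 6.95). The oligonucleotide and lipofectamine arrays did not overlap, and how many of all genes were separated in this way was not counted. The difference was 3.78 (SE 1.18, adjusted p = 0.813). It was 3.51 and no longer past the unadjusted threshold without lipofectamine replicate 2. With GFP exosomes the means were 7.96 and 8.05, a difference of −0.09 (SE 1.18). The difference between these, 3.87 (SE 1.66), was past the unadjusted threshold and not past adjustment (adjusted p = 1.0). *Aim2* was the 1 sensor of 10 in that test, where 3.86% of all genes passed, and the median of the sensors was −0.46 against 0.02 for all genes. It was −0.19 with median centring, 0.063 with the mean of probe sets, 0.37 with the second-brightest probe set and −1.13 to 0.031 when single arrays were left out (lowest without lipofectamine replicate 1 and highest without scramble replicate 1, both with miR-21 exosomes). *Dhx58* was the other sensor past the threshold with miR-21 exosomes, with a mean of 5.65 on oligonucleotide arrays and 7.60 on lipofectamine arrays (−1.95, SE 0.81, adjusted p = 0.954), where 5.17% of all genes passed. With GFP exosomes none of the sensors passed, against 3.14% of all genes. By the brightest probe sets 8 of 10 were higher, and their median was 0.33 against −0.07 for all genes. The second-brightest probe sets did not share this direction. By them *Rigi* (0.54), *Mavs* (0.005) and *Sting1* (0.77) were higher, and *Dhx58* (−0.70), *Cgas* (−1.24), *Zbp1* (−0.68), *Eif2ak2* (−0.14) and *Tbk1* (−0.96) lower. With either exosome type, 0% passed after adjustment.

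Each oligonucleotide was also set against lipofectamine by itself. With miR-21 exosomes *Aim2* was 3.92 higher after antagomir (SE 1.36, adjusted p = 0.889) and 3.64 higher after scramble (SE 1.36, adjusted p = 0.766), both against the same 2 lipofectamine arrays. *Dhx58* was 3.10 lower after scramble (SE 0.94, adjusted p = 0.669) and 0.79 lower after antagomir (SE 0.94). These were 1 of 10 sensors for antagomir, where 4.82% of all genes passed the unadjusted threshold, and 2 of 10 for scramble, where 5.68% passed. With GFP exosomes none of the sensors passed for antagomir (5% of all genes) or for scramble (2.54%). By its brightest probe set *Zbp1* was 1.31 higher after antagomir (SE 1.18) and 0.86 higher after scramble (SE 1.18) with GFP exosomes. No gene passed after adjustment (0%).

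Between the 2 oligonucleotides, antagomir and scramble, 8 of the 10 sensors were higher with antagomir and 2 lower, with a median of 0.46 against −0.004 for all genes. That median was 0.18 with the second-brightest probe set, 0.071 without scramble replicate 1 with GFP exosomes, 0.078 without scramble replicate 1 with miR-21 exosomes and 0.17 without both scramble arrays with miR-21 exosomes. None passed the unadjusted threshold by its brightest probe set over 4 arrays each, where 5.16% of all genes did and 0% passed adjustment. An exact permutation test within exosome type cannot go below 0.0556 here, and the smallest p among the sensors was 0.333, for *Dhx58* (0.93 higher, SE 0.66). *Mavs* was 1.07 higher (SE 1.18) and *Aim2* 0.84 higher (SE 0.96). *Eif2ak2* differed by −0.27 (SE 0.68) by its brightest probe set, by −1.65 (SE 1.14) by the second-brightest and by −3.40 (SE 1.36), past the unadjusted threshold, by the dimmest. With miR-21 exosomes alone *Dhx58* had a mean of 6.81 after antagomir and 4.49 after scramble (2.32 higher, SE 0.94, adjusted p = 0.903), the 1 sensor past the unadjusted threshold, against 5.3% of all genes. With GFP exosomes none passed, against 5.38% of all genes. In the 9 comparisons of 2 arrays against 2, 6 of 90 values of the sensors passed the unadjusted threshold, all of them of *Dhx58* or *Aim2*, where 2.54% to 5.7% of all genes passed it and 0% passed adjustment in any. Several of these comparisons share arrays.

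The 45 pairs of sensors had Pearson correlations from −0.71 to 0.85 over the 12 arrays, with a median of 0.05 and 24 above 0. By their brightest probe sets, the adaptors *Mavs* and *Sting1* were the most alike (r = 0.85, Spearman rho = 0.68). This rested on lipofectamine array 1 and scramble array 1 with miR-21 exosomes, without which r was 0.36. Within each adaptor the probe sets were not alike (r = −0.03 for *Mavs* and −0.21 for *Sting1*). *Tbk1* had r of 0.61 with *Mavs*, 0.60 with *Ifih1* and 0.59 with *Sting1*. *Eif2ak2* and *Tbk1* ran opposite (r = −0.71, rho = −0.80), with r = −0.65 without scramble array 2 and antagomir array 1 of the miR-21 exosomes. Points of these correlations share each array's scaling and RNA. Among 9095 other genes above the median signal, the closest to a sensor were *1110059G10Rik* to *Sting1* (r = 0.98), *Grk5* to *Rigi* (0.98) and *Oip5os1* to *Tbk1* (0.96), over 12 arrays.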

How the data were processed

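The log2 signals per probe set were deposited by the authors for 12 Affymetrix mouse arrays. On each array the deposited log2 values have the same trimmed mean (496 to 499 once returned to linear signal, without the top and bottom 2%), and they are not quantile normalized, whereas the methods describe RMA with the affy package. The labels name NuGEN reagents, the methods another kit and more replicates. Which software made the values, and how far they stand above background, is not known.

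Of 45037 probe sets, 34945 had 1 gene symbol in the platform annotation, and 932 with several and 9160 with none were left out. Where several probe sets read a gene, the one with the highest mean was used, which left 18193 genes. Groups followed the labels. They were compared in limma 3.58.1 (R 4.3.3) as 6 group means with 6 residual degrees of freedom, with p-values adjusted over all genes by Benjamini-Hochberg. Single sensors were also compared by exact permutation within the other factor (225, 216 or 36 permutations). Genes named are the 10 sensors, up to 3 per list with the smallest p, and the closest genes of 3 sensors. The sensors and lists were chosen with earlier results of these data known. Alternatives were other scalings, a filter on dim genes, other probe sets and models, the methods' unpaired test, and leaving out arrays.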

Additional observations from a re-analysis of the deposited data

Results flagged for a closer look

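*Aim2* and *Dhx58* were singled out because their effects differed between groups by a test of the difference itself. For *Aim2*, the difference between oligonucleotide and lipofectamine was 3.87 larger on the log2 scale on miR-21 arrays than on GFP arrays (SE 1.66, limma adjusted p = 1.0). The difference between miR-21 and GFP exosomes was 4.43 larger for *Aim2* after scramble than after lipofectamine (SE 1.92, adjusted p = 1.0). For *Dhx58* it was −3.87 (SE 1.33, adjusted p = 1.0) by the brightest probe set, and −0.36 (1420769_at) and 0.016 (1420768_a_at) by the others. All 3 were past an unadjusted p under 0.05 and none passed adjustment, and all rest on the lipofectamine or scramble arrays with miR-21 exosomes, 2 of each. On these lipofectamine arrays *Aim2* (5.02 and 4.48) lay below the lower quartile of all probe sets (5.62 and 6.95). No group has enough arrays for a test of single arrays that stand apart.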

How the results depend on the processing

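No gene passed adjustment under any alternative. For *Dhx58*, miR-21 against GFP exosomes gave 0.29 with the mean of its probe sets and 0.15 with the second-brightest, and oligonucleotide against lipofectamine with miR-21 exosomes gave 0.23 with the second-brightest. The median of the sensors for miR-21 against GFP exosomes was −0.14 with quantile normalization and −0.62 with median centring. It was 0.027 with the mean of probe sets and −0.10 with the second-brightest. Centring shifts all genes of a comparison by the same amount, and moved the median of all genes to −0.30, against −0.02 as deposited. That the sensors lay 0.32 below it in both scalings was therefore fixed in advance. The median for the oligonucleotide effect by exosome was −0.19 with centring, 0.063 with the mean of probe sets and 0.37 with the second-brightest, and that for antagomir-21 against scramble was 0.18 with the second-brightest. Of the 90 sensor values in comparisons of 2 against 2 arrays, 3 passed with the mean of probe sets and 3 with the second-brightest. Counts of all genes at an unadjusted p under 0.05 fell among genes above the lower quartile of signal, as fewer were tested (431 for oligonucleotide, 611 for exosomes, 603 for antagomir-21 against scramble, 447 for the oligonucleotide effect by exosome). The oligonucleotide count was 488 with an intensity trend and the antagomir count 597 with the methods' unpaired test, and the cause was not tested. Scaling changed the split of genes past the threshold: for exosomes 728 higher and 263 lower became 547 and 388 with quantile normalization and 431 and 519 with centring, for antagomir-21 against scramble 306 and 633 became 411 and 494 with quantile normalization, and for the oligonucleotide effect by exosome 379 and 324 became 481 and 248 with centring. Without both arrays of scramble with miR-21 exosomes (chosen after seeing the data), *Dhx58* was −0.90 in the exosome comparison, and the medians were 0.17 for antagomir-21 against scramble and −0.25 for the oligonucleotide effect by exosome.

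Leaving out each array in turn gave 472 to 1248 genes for oligonucleotide against lipofectamine (lowest without lipofectamine GFP replicate 2, highest without lipofectamine miR-21 replicate 2), 690 to 1600 for miR-21 against GFP exosomes, 721 to 1538 for antagomir-21 against scramble, 443 to 1624 for the oligonucleotide effect by exosome and 2 to 9 of the 90 sensor values. The median of the sensors ran from −0.37 to −0.050 for miR-21 against GFP exosomes (nearest 0 without scramble miR-21 replicate 1), 0.071 to 0.55 for antagomir-21 against scramble and −1.13 to 0.031 for the oligonucleotide effect by exosome. The difference of *Aim2* between oligonucleotide and lipofectamine with miR-21 exosomes was 3.51 and no longer past the unadjusted threshold without lipofectamine miR-21 replicate 2. The replicate numbers did not pair the arrays (15 correlations from −0.19 to 0.17, 1 over 0.1). With them as a replicate block, 725 genes passed for oligonucleotide, 988 for exosomes, 935 for antagomir-21 against scramble and 723 for the oligonucleotide effect by exosome.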
